A study of Drosophila melanogaster with 3 samples.

Results

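Cytoplasmic ribosomal protein genes were examined for peaks of the Pointed-eGFP fusion protein in fly embryos. The members were chosen by symbol, as protein-coding genes whose name starts with RpL or RpS followed by a digit or a P, a rule that reads no binding value. The rule found 92 of the 13945 protein-coding genes on the 6 chromosome arms analysed, 54 of the large and 38 of the small ribosomal subunit. Of these, 16 formed 8 pairs of copies named a and b, 5 had symbols ending in -like and the other 71 are called single genes, although they include the copies RpL37-1 and RpL37-2. The 73 genes of mitochondrial ribosomal proteins (symbols starting with mRp) served as a comparison.

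The cytoplasmic ribosome is built from ribosomal RNA and a fixed set of proteins, and in flies the loss of 1 copy of many of these genes gives the Minute phenotype of slow development and short bristles. Their mRNAs are among the most abundant in growing cells. Many fly ribosomal protein genes start transcription within a run of pyrimidines, the TCT initiator, in place of the usual initiator. Pointed belongs to the ETS family of transcription factors, which bind DNA around a GGAA core, and it carries out responses to receptor tyrosine kinase and MAP kinase signalling.

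Chromatin immunoprecipitation and sequencing (ChIP-seq) was done on whole Drosophila melanogaster embryos of mixed sex, collected between 0 and 24 hours of age. All 3 biological replicates belonged to 1 group and 1 line, pnt-MiMIC-GFP, in which an eGFP exon placed in an intron of pnt makes the fusion protein from the gene's own locus. The antibody field of the labels reads pnt, whereas the description names an anti-GFP antibody. Whole embryos mix all tissues and ages, so a peak cannot be placed in a cell type, and no group without the fusion protein was analysed here beside the control used by the authors in peak calling. The optimal list contained 3646 peaks, the relaxed list of the pooled replicates 23148 and that of each replicate 30000. The 3646 strongest peaks of a replicate are called its top list. Signal is in the authors' units, on a scale that the sources used here leave unstated, and read depth is unknown, so a gene without a listed peak is not shown to be unbound.

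Peaks lay at the starts of many ribosomal protein genes. A summit of the optimal list lay no more than 500 bp from a transcription start site (TSS) annotated for the gene itself in 40 of the 92 members (43.5%, 95% Clopper-Pearson interval 33.2 to 54.2%, which covers counting error only). Among all protein-coding genes this share was 15.8%. The 40 peaks were distinct, and no member had a second optimal summit within its window. When the gene's span and 2 kb on either side were searched, 48 members (52.2%) held a summit, against 29.4% of all protein-coding genes. The pooled relaxed list placed a summit at the start of 74 members (80.4%), against 42.5% of all genes. Members had alternative starts more often than other genes, since 52.2% of them and 73.5% of all genes had a single annotated TSS. Reading only the 5′ end of each gene left the count of members at 40.

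The share differed widely between replicates. A summit lay at the start of 39 members (42.4%) in the top list of replicate 1, of 21 (22.8%) in that of replicate 2 and of 53 (57.6%) in that of replicate 3. The same lists gave 16.1%, 12.8% and 17.4% of all protein-coding genes. Members were above all genes in 3 of 3 replicates, by 26.2, 10 and 40.2 percentage points (mean 25.5 ± 15.1, SD, n = 3). The exact two-sided sign-flip test over replicates gave p = 0.25, the smallest p that 3 replicates allow. Without replicate 3 the mean difference was 18.1 points, and without replicate 2 it was 33.2. All 3 top lists had a summit at the start for 16 members (17.4%), against 9.5% of all genes. The mitochondrial ribosomal protein genes had the same call in 17.8%, so members did not stand apart from them here.

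**Figure D1:**
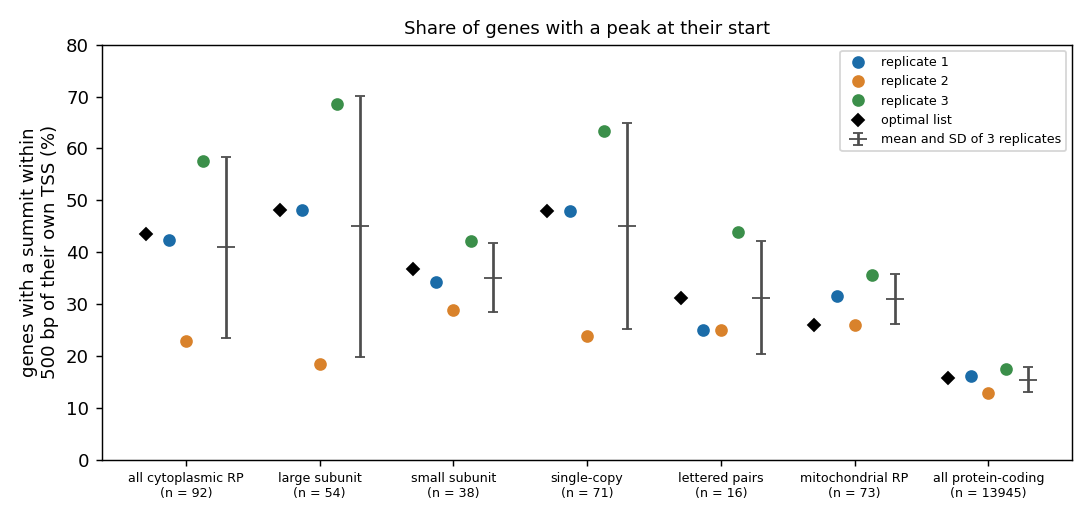
Percentage of genes in each group (x axis, with the number of genes) that had a summit within 500 bp of their own TSS (y axis). Circles are the 3 replicate top lists, diamonds the optimal list, and horizontal ticks with bars the mean and SD of the 3 replicates. Cytoplasmic ribosomal protein genes spread from 22.8% in replicate 2 to 57.6% in replicate 3, while all protein-coding genes stayed between 12.8% and 17.4%.

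The strongest peaks at members were found in every replicate. At RpL32, a large-subunit gene long used as a reference transcript under the name rp49, the optimal peak had a signal of 600.3 and ranked 134, and the replicate signals were 227.6, 199.1 and 180.4 (ranks 119, 162 and 149 in replicates 1, 2 and 3). RpL34b, another large-subunit gene, had an optimal signal of 507.9 (rank 200) and replicate signals of 216.2, 131.8 and 162.4 (ranks 133, 380 and 196). RpS20, of the small subunit, had 495.8 (rank 217) and replicate signals of 205.8, 142.9 and 148.8 (ranks 151, 316 and 241). These 3 peaks stood at or above rank 380 in every replicate list. RpS27, of the small subunit, had an optimal signal of 382.5 (rank 352) but differed more between replicates, with ranks of 489, 1489 and 121. Summit and gene did not always belong together: the RpL32 summit lay 94 bp from the start of CG7943 and 215 bp from its own, and the RpS20 summit 158 bp from the start of CG17271.

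The reference sequence at these starts is shown because none of the 8 patterns searched is found in all of the 4 strongest. Each line gives 100 bases before the annotated 5′ end and 30 from it on, along the gene, from the RefSeq Release 6 (dm6) genome. The windows are chr3R:30046132-30046261 for RpL32, chr3R:9401197-9401326 for RpL34b and chr3R:25247485-25247614 for RpS27, all on the minus strand, and chr3R:20822081-20822210 on the plus strand for RpS20. Capitals mark any of the 8 patterns searched, which are listed with their shares further on.
RpL32: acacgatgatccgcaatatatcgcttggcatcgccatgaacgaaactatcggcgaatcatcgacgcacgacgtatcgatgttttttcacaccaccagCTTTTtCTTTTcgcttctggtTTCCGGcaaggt
RpL34b: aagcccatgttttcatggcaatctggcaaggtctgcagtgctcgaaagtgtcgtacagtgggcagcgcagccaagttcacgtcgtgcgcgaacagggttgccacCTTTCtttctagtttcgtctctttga
RpS20: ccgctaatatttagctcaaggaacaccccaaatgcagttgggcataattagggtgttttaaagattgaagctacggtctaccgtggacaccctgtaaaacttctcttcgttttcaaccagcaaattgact
RpS27: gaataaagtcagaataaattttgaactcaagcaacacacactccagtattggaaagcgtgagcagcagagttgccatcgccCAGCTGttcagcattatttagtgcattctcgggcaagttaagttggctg
RpL32 carries CTTTT at its start and TTCCGG at 19 bases, counting the 5′ end as 1. RpL34b carries CTTTC at its start and RpS27 one CAGCTG, and the RpS20 window shows none of the 8 patterns.

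Replicate 3 ranked most of the members higher than the other replicates did. Of the 40 members with an optimal summit at the start, 32 (80%) had their best rank in replicate 3, 8 in replicate 1 and 0 in replicate 2. Among all 2197 genes with such a summit, the best rank was in replicate 3 for 34.2% and in replicate 2 for 21.9%. In replicate 1 all 40 were listed, with signals from 18.1 to 228 and a median rank of 1756. Replicate 3 also listed all 40, with signals from 43.8 to 193 and a median rank of 824. Only 23 of the 40 (57.5%) were listed at all in replicate 2, whereas 91.3% of all genes with an optimal summit were. RpL14, a large-subunit gene, was the widest case among the 10 strongest, with signals of 47.3, 15.3 and 160.1 and ranks of 2265, 19573 and 204. RpL24, also of the large subunit, ranked 8007 in replicate 1 and 545 in replicate 3 and was unlisted in replicate 2.

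**Figure D2:**
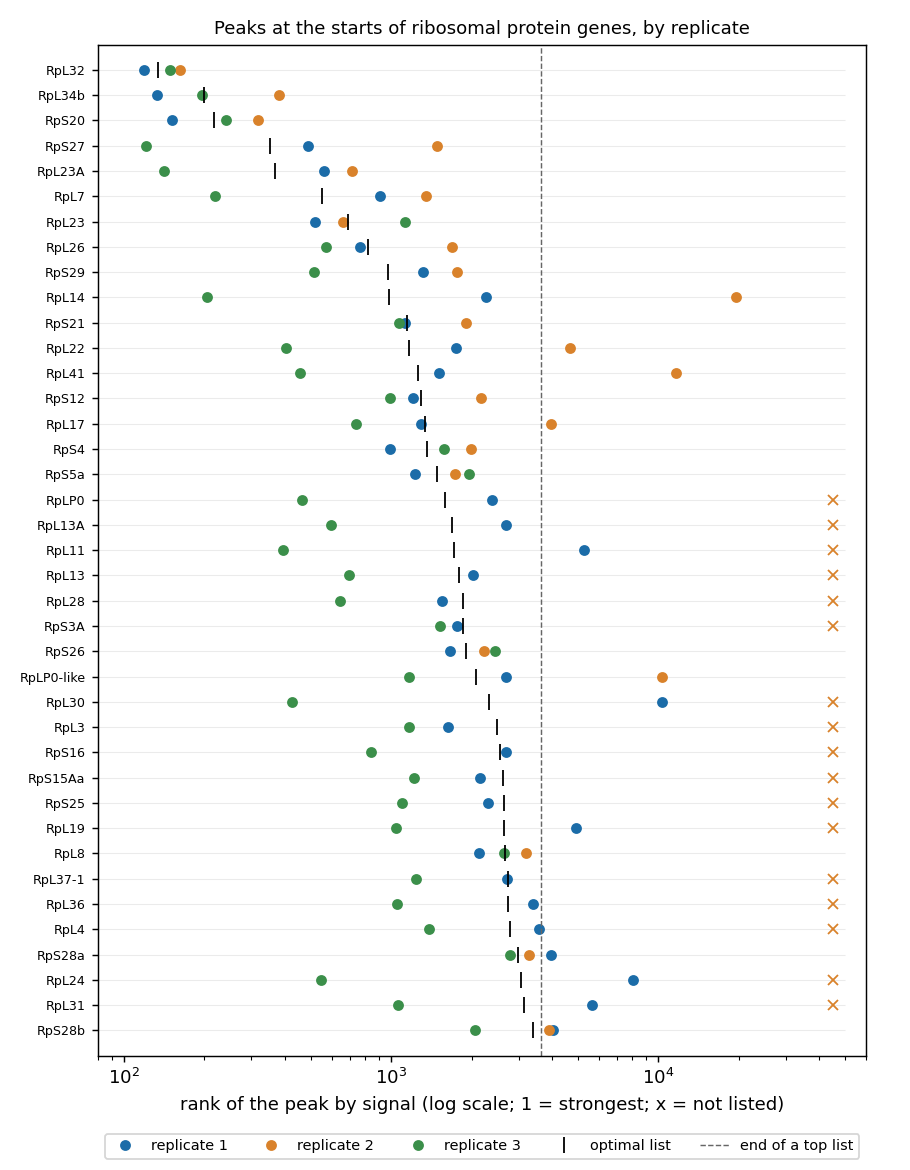
Rank by signal (x axis, log scale, 1 is the strongest) of the peak at the start of 39 of the 40 members with an optimal summit there (y axis, ordered by optimal rank). Circles are the replicates, black ticks the optimal list, crosses peaks not listed and the dashed line the end of a top list at rank 3646. Replicate 3 lies left of the other replicates for 31 of the 39 plotted, and 17 are not listed in replicate 2.

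Of the 40, 16 stood in 3 top lists, 18 in 2 and 6 in 1. For 17 of those in 2 lists these were replicates 1 and 3, and all 6 found in a single list were in that of replicate 3. The 6 were RpL11, which binds 5S ribosomal RNA together with RpL5, and RpL19, RpL24, RpL30, RpL31 and RpS28b. Within the optimal list the members were not placed unusually high: 22 (55%) fell among the peaks at or above its median signal, against 58.2% of all genes with a summit at the start. Their signal ran from 98.0 at RpS28b to 600.3 at RpL32, with a median of 161.4, and the median of the whole list was 153.5.

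Summits lay close to the members' starts. The median position of the optimal summit was -65.5 bp from the nearest own TSS (negative values are upstream), and 35 of 40 summits were upstream. The summit was within 100 bp of the TSS for 31 of 40 members (77.5%). All 2197 genes with an optimal summit at the start had a median of -128 bp, with 34.8% within 100 bp, and the 19 mitochondrial ribosomal protein genes a median of -172 bp, with 21.1%. In the replicate top lists the members' medians were -87, -95 and -29 bp, and those of all genes -133, -150 and -97 bp, so members were nearer in 3 of 3. Members had alternative starts more often than all genes, which can shorten the distance to the nearest one. Positions from the 5′ end alone were not computed. In 80.9% of optimal peaks the summit is the midpoint of the peak. The sources used here do not state how summits were placed, so the resolution of these positions is unknown.

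**Figure D3:**
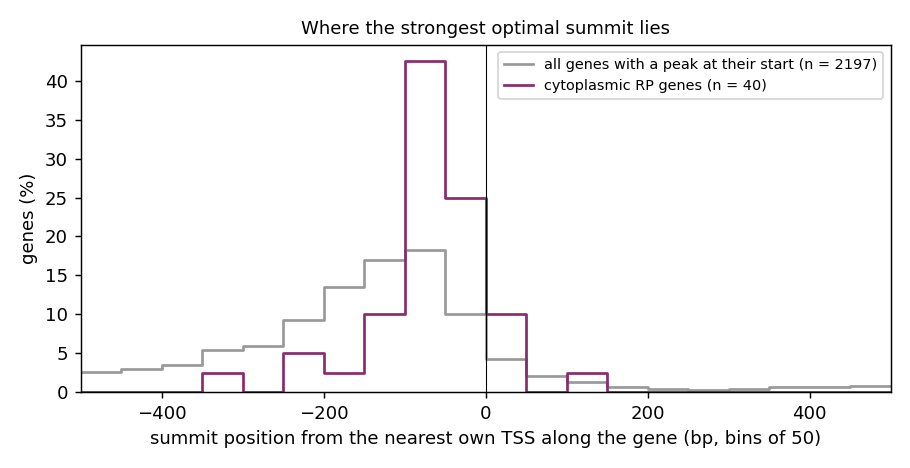
Position of the strongest optimal summit relative to the nearest own TSS (x axis, bp along the gene, bins of 50) as a percentage of genes (y axis). The cytoplasmic ribosomal protein genes (n = 40) pile up just upstream of the start, with a median of -65.5 bp, and all genes with such a summit (n = 2197) spread further upstream, with a median of -128 bp.

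The start of another gene was often close by. Of the 92 members, 36 (39.1%) had a divergently transcribed gene starting within 500 bp, against 27.4% of all genes. A summit lay at the start of 22 of these 36 (61.1%) and of 18 of the 56 others (32.1%). The same split over all protein-coding genes gave 32% and 9.62%, so in the optimal list members had the higher share on both sides of it. In the replicate top lists, members with a divergent gene were called in 52.8%, 22.2% and 72.2%, and those without in 35.7%, 23.2% and 48.2%. All genes with a divergent gene were called in 33.9%, 24.9% and 33.4%, and all without in 9.47%, 8.23% and 11.3%, so in replicate 2 members with a divergent gene were below all such genes. For 31 of the 40 members with a summit, their own start was the nearest protein-coding start. The other 9 were nearer another gene, among them RpLP0-like, whose summit lay 2 bp from the start of 14-3-3zeta, and RpL13, which shares its upstream region with Dref, the gene of the DNA replication-related element factor.

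RpL7, a large-subunit gene, starts 30 bp from the divergent gene Ripalpha, and its summit lay at 10 bp past its own start (optimal signal 307.6, rank 553). Its ranks in the replicates were 910, 1351 and 219. The sequence is shown because both genes share it (chr2L:10200904-10201033, plus strand, same layout and capitals as above).
RpL7: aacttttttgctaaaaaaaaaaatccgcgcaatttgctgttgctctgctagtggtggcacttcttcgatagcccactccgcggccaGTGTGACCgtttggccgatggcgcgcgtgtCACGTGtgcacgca
The capitals are GTGTGACC, which is GGTCACAC on the other strand, upstream of the 5′ end and CACGTG just past it.

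Host genes of small nucleolar RNAs were frequent among the members. A snoRNA gene lay inside 28 of the 92 (30.4%), against 0.688% of all protein-coding genes. Of these 28, 17 had an optimal summit at the start (60.7%), compared with 23 of the 64 members with no snoRNA (35.9%). The replicate top lists gave 71.4%, 35.7% and 71.4% for the first set and 29.7%, 17.2% and 51.6% for the second, so snoRNA hosts were higher in 3 of 3, a split chosen after the values were seen and given no test. All 96 snoRNA host genes together, the 28 members among them, had an optimal summit at the start in 38.5% (37 genes, 17 of them members).

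The difference between large-subunit and small-subunit genes was smaller than the spread between replicates. An optimal summit lay at the start of 26 of 54 large-subunit genes (48.1%) and 14 of 38 small-subunit genes (36.8%). The order was the other way round for a summit in the span or 2 kb (50% of large-subunit and 55.3% of small-subunit genes) and for a start summit in 3 top lists (14.8% and 21.1%). Large-subunit genes were called in 48.1%, 18.5% and 68.5% in the 3 top lists and small-subunit genes in 34.2%, 28.9% and 42.1%. The difference, large minus small, was 13.9, -10.4 and 26.4 percentage points (mean 9.97 ± 18.7, SD, n = 3, exact two-sided sign-flip p = 0.5), with the sign turned in replicate 2. Over the replicates the large-subunit share was 45.1 ± 25.1% and the small-subunit share 35.1 ± 6.62% (SD, n = 3 each). Among the large-subunit genes with a summit were RpL3, at the peptidyl transferase centre, which ranked 1631 and 1167 in replicates 1 and 3 and was unlisted in replicate 2, and RpLP0, the base of the acidic stalk, at 2377 and 462 and also unlisted in replicate 2. Of the stalk's other proteins, RpLP1 had no replicate rank within a top list and RpLP2 one, 2946 in replicate 3. Among the small-subunit genes RpS3, RpS9 and RpS18 had no start summit in the pooled list, and RpS6, the substrate of S6 kinase, had a pooled signal of 81.6, below the weakest optimal peak at 93.2.

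Mitochondrial ribosomal protein genes, which encode the ribosome of another compartment, had an optimal summit at the start in 19 of 73 (26%). Their replicate shares were 31.5%, 26% and 35.6%. Cytoplasmic minus mitochondrial gave 10.9, -3.2 and 22 points (mean 9.89 ± 12.6, SD, n = 3, exact two-sided sign-flip p = 0.5), a difference smaller than the spread between replicates.

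Of the 8 lettered pairs of copies, 4 had no optimal summit at either start, 3 at 1 and 1 at both, so 3 of 8 differed in the optimal list. RpL34b was the strongest of all lettered copies, while RpL34a had a pooled signal of 86.5 and ranked 7734 in replicate 1 and 1375 in replicate 3, with none in replicate 2. RpS5a had an optimal signal of 178.5 and ranks of 1225, 1729 and 1952, and its copy RpS5b, known from work on the fly ovary, a pooled signal of 69.7 and ranks of 7822, 7037 and 10661. RpS15Aa had a signal of 119.2 and RpS15Ab a pooled signal of 60.0 at its start. RpS28a and RpS28b were both called, at 107.4 and 98.0. Both copies of RpS10 and RpS14 stayed below the optimal list, RpL10Ab reached 89.9 and RpL10Aa was listed nowhere. Duplicated genes were called in 25%, 25% and 43.8% in the 3 top lists and single genes in 47.9%, 23.9% and 63.4% (difference -22.9, 1.06 and -19.6 points, mean -13.8 ± 13, SD, n = 3, exact two-sided sign-flip p = 0.5). With RpL37-1 and RpL37-2 counted as duplicated, a choice made after the data were seen, the mean was -13.9 ± 9.98 and duplicated genes were lower in 3 of 3 (exact p = 0.25, the smallest possible). For an optimal summit in the span or 2 kb the order turned, at 56.2% of duplicated and 53.5% of single genes. Of the 5 -like genes only RpLP0-like had a summit, and RpL7, RpL22 and RpL24 had one where RpL7-like, RpL22-like and RpL24-like, listed nowhere in the pooled list, had none. RpL22-like is known as a gene of the testis, and RpL24-like and RpLP0-like resemble yeast factors of ribosome assembly rather than subunits of the mature ribosome.

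**Figure D4:**
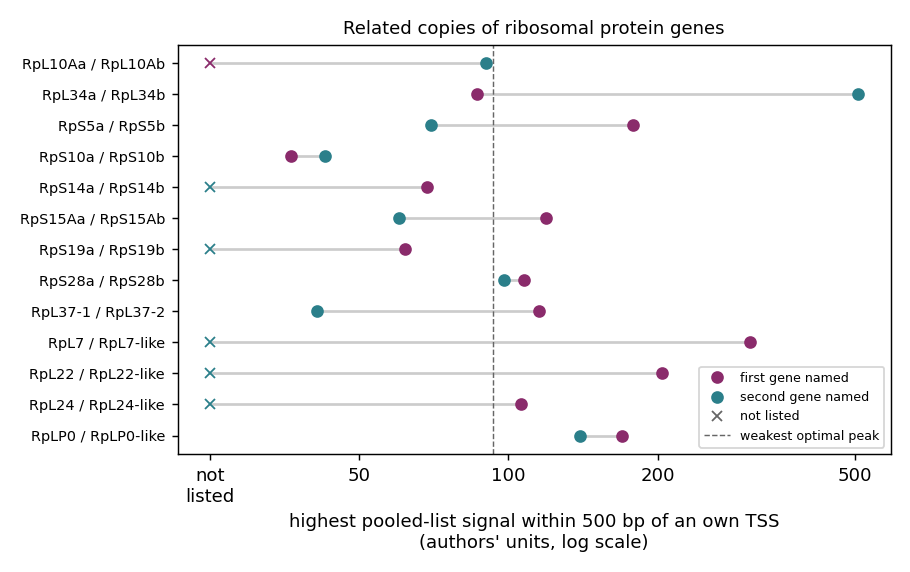
Highest signal of the pooled list within 500 bp of an own TSS (x axis, authors' units, log scale, crosses where no peak is listed) for related copies (y axis). The dashed line is the weakest optimal peak, at 93.2. Only RpS28a with RpS28b and RpLP0 with RpLP0-like lie beyond it on both sides.

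The copies' starts are printed because RpL34a and RpL34b, and RpS5a and RpS5b, differ in the patterns there. The windows are chr3R:26059238-26059367 for RpL34a, chrX:17148235-17148364 for RpS5a and chr3R:14901534-14901663 for RpS5b, all on the minus strand, with the layout and capitals used for RpL34b above.
RpL34a: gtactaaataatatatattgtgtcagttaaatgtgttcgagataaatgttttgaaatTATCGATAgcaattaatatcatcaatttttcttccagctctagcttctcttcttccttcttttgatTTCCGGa
RpS5a: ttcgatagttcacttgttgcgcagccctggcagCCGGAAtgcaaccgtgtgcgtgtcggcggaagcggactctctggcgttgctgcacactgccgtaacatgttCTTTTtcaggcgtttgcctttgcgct
RpS5b: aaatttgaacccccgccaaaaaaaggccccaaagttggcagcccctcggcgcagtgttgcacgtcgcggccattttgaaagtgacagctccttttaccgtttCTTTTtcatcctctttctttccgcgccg
RpL34a, without an optimal summit, carries TATCGATA before its start and TTCCGG after it, neither of which RpL34b shows. RpS5a carries CCGGAA upstream, at -67 bp, and RpS5b does not, while both show CTTTT at the start.

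A set of 8 patterns was searched in the 250 bases before and 50 from each gene's annotated 5′ end, on both strands except the initiator. An ETS-type pattern, CCGGAA, which reads as TTCCGG on the opposite strand, occurred in 34.8% of members and 6.78% of all promoters. It occurred in 37.5% of the 40 members with an optimal summit at the start and 32.7% of the other 52. Among all 2197 genes with an optimal summit at the start, CCGGAA was in 6.37%, no more than in all promoters. CAGGAA, the other ETS-type pattern, was in 6.52% of members, 9.41% of all promoters and 8.69% of all genes with an optimal summit at the start. TATCGATA, the DNA replication-related element (DRE), was in 30.4% and 9.36%, and GGTCACAC, known as a core promoter element of housekeeping genes, in 15.2% and 7.7%. CACGTG was in 8.7% and 4.2%, CAGCTG in 9.78% and 17.7%, and GAGAGAG in 0 of 92 and 5.87%. By subunit, CACGTG was in 14.8% of large-subunit and 0 of 38 small-subunit genes. CAGCTG had the other order, in 5.56% of large-subunit and 15.8% of small-subunit genes. CTTTT or CTTTC within 5 bases of the 5′ end, a short form of the TCT initiator read along the gene only, was in 33.7% of members and 3.47% of all promoters. Patterns may overlap at the junction of initiator and TTCCGG. Between members with and without an optimal summit at the start, TATCGATA was in 30% and 30.8% and the initiator in 35% and 32.7%. GGTCACAC was in 7.5% and 21.2%, and CACGTG in 12.5% and 5.77%. Of the 52 members without one, 34 had a start summit in the pooled list, so these shares do not compare bound with unbound genes. A match is a description of the letters, and no test was made of these shares.

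Past the start, most CCGGAA matches in these genes shared a place and a direction. Read along the gene as TTCCGG from the 5′ end on, it was found in 21 members (22.8%), between 8 and 39 bases, with a median of 23 and 19 of them at 32 or before. In all protein-coding genes the same reading gave 0.889%. Past the 5′ end, 3 members (3.26%) had a match in the other direction, against 0.746% of all genes. Before the 5′ end, 12 members (13%) had a match in either direction, against 5.38% of all genes. TTCCGG from the 5′ end on was found in 27.5% of members with an optimal summit at the start and 19.2% of the others. Reading every annotated start of each gene gave 27.5% and 28.8%. By the 5′ end it was found in 27.8% of large-subunit, 15.8% of small-subunit genes and 1.37% of mitochondrial ribosomal protein genes. Shorter windows, 10 bases before and 30 from the 5′ end, show how it follows the pyrimidine run. RpL14 (chr3L:8600996-8601035, plus), RpL8 (chr3L:2587446-2587485, plus) and RpS3A (chr4:67178-67217, minus) had a summit at the start. RpL18 (chr3L:7241322-7241361, minus), RpL27 (chr3R:25685022-25685061, minus), RpL35A (chr3R:5467072-5467111, minus) and RpLP1 (chr2L:419942-419981, plus) had none there in the optimal list. Each of these had a start summit in the pooled list, with signals of 77.4, 47.2, 51.3 and 59.3. RpL18, RpL27 and RpL35A were also in the top list of replicate 3, at ranks 1440, 2104 and 3027. Capitals mark the same patterns as before.
RpL14: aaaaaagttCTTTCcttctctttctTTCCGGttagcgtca
RpL8: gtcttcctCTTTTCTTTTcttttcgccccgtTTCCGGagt
RpS3A: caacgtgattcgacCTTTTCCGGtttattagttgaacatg
RpL18: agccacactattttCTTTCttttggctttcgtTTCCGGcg
RpL27: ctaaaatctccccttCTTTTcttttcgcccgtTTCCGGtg
RpL35A: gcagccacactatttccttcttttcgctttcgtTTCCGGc
RpLP1: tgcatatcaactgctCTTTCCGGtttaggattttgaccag
The same letters follow the start in both sets, with TTCCGG at 16 in RpL14, 22 in RpL8 and 8 in RpS3A, and at 23 in RpL18 and RpL27, 24 in RpL35A and 8 in RpLP1.

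**Figure D5:**
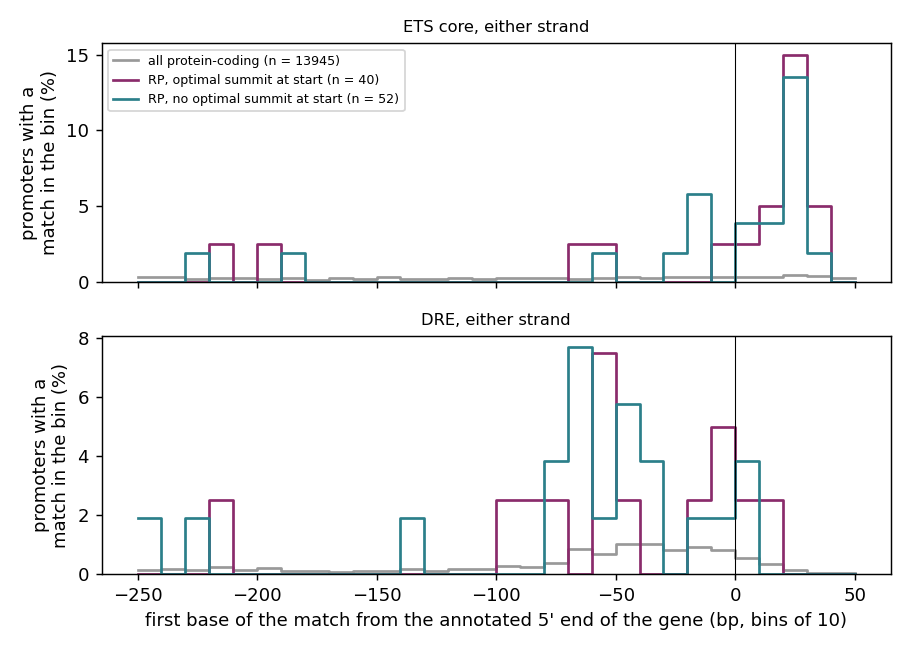
Percentage of promoters with a match in each bin of 10 bp (y axis) by its position from the annotated 5′ end (x axis), either strand. The upper panel, titled ETS core, counts CCGGAA only and no other GGAA site, and the lower panel counts the DRE. CCGGAA matches of members with (n = 40) and without (n = 52) an optimal summit both peak 20 to 30 bp past the start. All promoters (n = 13945) stay near the axis there.

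Among the 52 members without an optimal summit at the start, 34 had one in the pooled relaxed list. In the top lists of the replicates, 20 of the 52 were called in at least 1, 12 of them in that of replicate 3 alone, and 3 in 2 lists (RpL10Ab, RpL27A and RpL5). RpL37A (pooled signal 90.5) and RpL10Ab (89.9) came close to the weakest optimal peak at 93.2. RpL40 and RpS27A, whose proteins are made as fusions to ubiquitin, had pooled signals of 45.9 and 46.0. Of the 18 members with no start summit in the optimal or pooled list, 15 also had no optimal summit in their span or 2 kb, the first 10 by symbol being RpL10Aa, RpL15, RpL22-like, RpL24-like, RpL29, RpL38, RpL39, RpL7-like, RpS14b and RpS18. No list on this build placed a summit at the start of RpL10Aa, RpL22-like, RpL39, RpS28-like or RpS19b.

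Of these 52, 8 held an optimal summit within their span or 2 kb. In all 8 the summit was nearest to another gene's start. Among them were RpS19a (347.0, nearest to mthl1), RpS13 (178.0, CG7627), RpL35 (152.6, Rab18), RpS19b (150.7, CG5854), RpS15 (123.3, CG4927), RpS5b (113.3, CG3817) and RpS15Ab (93.2, CG12325). Nearest to the limit of 500 bp, RpL23 had a summit at 319 bp, and RpL35 and RpS15 had theirs at 526 and 592 bp.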

How the data were processed

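The authors deposited peak lists in narrowPeak form, per the labels and the notes on the files: a relaxed list per replicate and for the pooled replicates, called against a control, and an optimal list from the irreproducible discovery rate procedure. The sources used here name no aligner, peak caller, version or threshold. A signal value per peak was deposited by the authors and served to rank and describe peaks. All 3646 optimal peaks are in the pooled list with the same position and signal, so values of these lists share a scale. Read depth is unknown, and intervals cover counting error only. Lists on dm3 were not used.

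Summits (start plus offset) were matched to genes of the Ensembl release 115 annotation, which agreed in position with the RefSeq table (Release 6, FlyBase 6.54) for all 92 members. Coordinates are 1-based dm6. The window limits of the calls were checked with summits planted at set distances from annotated genes, which does not test the peaks themselves. Differences between gene groups were computed per replicate top list and tested by an exact two-sided sign-flip over 3 replicates. These lists reuse the libraries behind the optimal list. Named genes are the 10 strongest members, the copies, those just inside and outside 500 bp, the first 10 by symbol with no pooled summit, and the nearest genes. Some genes that this rule names are not reported here. Other genes, and the short windows printed, were named after their values were seen. The rule for members reads symbols only, but the gene family, patterns, gene lists and alternatives were chosen with earlier results of these data known, and promoter shares and neighbour splits carry no test. Sequences came from the Release 6 RefSeq genome. Python 3.11.15, pandas 2.3.3, numpy 2.4.6, scipy 1.17.1 and matplotlib 3.10.9 were used.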

Additional observations from a re-analysis of the deposited data

How the results depend on the processing

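The count of 40 members with an optimal summit at the start was 39 to 43 with windows of 250 bp or 1000 bp, the 5′ end only, the peak's midpoint or any base of it, and 31 when a summit counted only for the nearest gene. It was 22 among optimal peaks at or above the median signal, 74 in the pooled relaxed list and 21 in the top list of replicate 2. It was 16 for optimal peaks overlapped in all 3 top lists, 15 when most of their length had to be shared, and 16 to 33 when 1 replicate was left out of that overlap. The count of 48 in the span or 2 kb was 10 within the span alone, 28 among optimal peaks of at least the median signal, 88 in the pooled list, 31 in the top list of replicate 2 and 25 to 40 when 1 replicate was left out. The count of 16 in all 3 top lists was 9 with shorter lists, cut at the median rank, and 17 to 34 when 1 replicate was left out, with 34 without replicate 2. The initiator, read at any annotated start (an alternative chosen after seeing the data), was in 62% of members and 5.13% of all genes. By this reading it was in 67.5% of members with an optimal summit at the start and 57.7% of the others. More starts are read this way, and why the share rose was not tested. No mean difference over replicates turned its sign under the alternatives run for it. Large against small and duplicated against single did turn when the span and 2 kb were searched. TTCCGG past the start, at any annotated start, was in 27.5% of members with an optimal summit at the start and 28.8% of the others. Leaving out 1 replicate moved large minus small from 1.75 to 20.2 points, cytoplasmic minus mitochondrial from 3.84 to 16.4, and duplicated minus single from -21.3 to -9.29. Depth is unknown and limits every absence.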

Other observations

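The 3 large-subunit genes RpL15, RpL38 and RpL5, which lie far from any optimal summit, were listed at their starts in 1 or 2 replicates. RpL15 lay 4388374 bp from the closest optimal summit and was listed in replicate 1 alone, at rank 3533. RpL38 lay 611909 bp from one and was listed in replicate 1 alone, at rank 1937. RpL5 lay 669188 bp from one and ranked 2798 in replicate 1 and 3014 in replicate 2, and was unlisted in replicate 3. None of these 3 was listed in replicate 3, whereas the next farthest, RpL21 (380371 bp) and RpL10 (216590 bp), were, at ranks 7937 and 12979.

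CAGCTG was in 54.8% of the promoters of the 73 mitochondrial ribosomal protein genes, against 9.78% of the cytoplasmic ones and 17.7% of all, and CCGGAA in 4.11% against 34.8% and 6.78%.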
